A study of Mus musculus with 18 samples.

Results

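Mouse embryonic stem cells named Arf-B were compared with stem cells named Arf-C at day 0, before any differentiation factor was given. The comparison covers 13645 genes of the 54532 in the deposited table: those on chromosomes 1 to 19 with at least 0.5 FPKM in at least 3 of the 6 libraries. FPKM is the number of fragments scaled by gene length and library size, a level per length. On these chromosomes the table lists 50225 genes, of which 22681 were at 0 in all 6 libraries. The value that decides membership, the highest but 2 of the 6, was 0.500049 FPKM in the lowest gene inside the rule and 0.499481 FPKM in the highest gene outside it. In 39 of the 13645 genes all 3 Arf-B libraries reached 0.5 FPKM and no Arf-C library did, and in 24 the reverse held. Such genes entered through the line in which they are high. Of the 39, Cbx3-ps8 and Gm47730 were called in the test below, and of the 24, Mir6924 and Tap2. Gm47730 had 36 reads in the Arf-B libraries and 5 in the Arf-C libraries.

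All libraries come from ES-E14TG2a, a line of stem cells derived from a mouse blastocyst and kept on gelatine with serum and leukaemia inhibitory factor. There were 3 libraries of Arf-B, 3 of Arf-C and 3 of Ctrlv2, the other line of the study, at day 0, and the same again at day 8 of a protocol that used activin A with Matrigel, then retinoic acid with FGF10. The genotype label reads wild type for Arf-B, Arf-C and Ctrlv2 alike. The study's title names p19Arf. The sources used here do not say how Arf-B or Arf-C was derived, or whether either is a single clone. Nor do they say that numbered replicates are separate cultures, so p-values measure the spread between these samples, which may be technical.

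p19Arf is a small nucleolar protein encoded by the Cdkn2a locus. It holds back the ubiquitin ligase Mdm2 and so stabilises the tumour suppressor Trp53, and it binds the nucleolar protein Npm1. Mouse stem cells in serum and leukaemia inhibitory factor are held undifferentiated by Stat3 signalling together with Bmp signalling, which acts through the Id proteins, inhibitors of basic helix-loop-helix transcription factors.

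The stem cell label was checked on 10 marker genes (Pou5f1, Nanog, Sox2, Zfp42, Esrrb, Klf4, Dppa5a, Utf1, Fgf4 and Lin28a). Their summed level was 4284 to 4568 FPKM in Arf-B and 4095 to 4947 FPKM in Arf-C, and none of the 10 was called by limma, the test described below, or by its voom form, while 2 had an unadjusted p below 0.05. Markers of other cell types lay far below: fibroblast markers summed to 2.92 to 3.86 FPKM in Arf-B and 2.50 to 3.14 FPKM in Arf-C, with Col3a1, Dcn and Lum at 0. Primitive endoderm markers summed to 2.21 to 2.86 FPKM in Arf-B and 2.54 to 3.51 FPKM in Arf-C, mesendoderm markers to 1.02 to 1.29 and 1.25 to 1.58 FPKM, and trophoblast markers to 0.169 to 0.283 and 0.121 to 0.205 FPKM. The sums for a neural list, at 17.6 to 19.2 FPKM in Arf-B and 21.9 to 22.3 FPKM in Arf-C, did not overlap, with Neurog2 at 0. Those for a list of genes of the early 2-cell embryo, at 0.308 to 0.726 and 0.0302 to 0.125 FPKM, did not overlap either, with Zfp352 at 0. None of these 4 genes reached the 0.5 FPKM rule, so their sums rest on very low levels. The libraries held 22945409 to 32079905 reads on genes in Arf-B and 24872495 to 30385379 in Arf-C. Mitochondrial genes took 2.14% to 2.52% of the reads in Arf-B and 2.41% to 3.00% in Arf-C. Across the 13645 genes, correlations of log2 levels were 0.987 to 0.991 within a line and 0.984 to 0.991 between the lines. The first principal component (31.7% of the variance) set Arf-B replicate 3 and Arf-C replicate 1 farthest apart, at -19.0 and 17.7. Every Arf-B library lay below every Arf-C library on it, but Arf-C replicate 2 (-0.964) lay close to Arf-B replicate 1 (-1.64).

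Cdkn2a itself was at 1.67, 2.14 and 2.14 FPKM in Arf-B and at 2.18, 2.31 and 2.37 FPKM in Arf-C. All 3 Arf-B libraries lay below all 3 Arf-C libraries, but the difference did not pass the test (log2 -0.14, SE 0.111, adjusted p = 0.732). Reads were thus present in every library of both lines, and values per gene do not tell p19Arf transcripts from those of p16Ink4a, which share the locus. Trp53 averaged 107 ± 5.60 FPKM in Arf-B and 105 ± 2.07 FPKM in Arf-C (SD, n = 3 each), Mdm2 31.3 ± 3.98 and 31.2 ± 1.69 FPKM, and Npm1 1106 ± 121 and 1029 ± 128 FPKM. Cdkn1a, the Trp53 target that encodes the cell cycle inhibitor p21, averaged 9.98 ± 0.751 FPKM in Arf-B and 11.5 ± 1.89 FPKM in Arf-C, and Cdkn2b, the neighbour of Cdkn2a, 0.716 ± 0.152 and 0.474 ± 0.204 FPKM. None of these 5 passed the test (adjusted p between 0.643 and 1), and their libraries overlapped between the lines.

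Between the lines 55 of the 13645 genes were called, 0.403% of them, at a limma p adjusted by Benjamini-Hochberg below 0.05 on log2(FPKM + 1). The adjustment ran over 17200 genes, of which 0.343% were called. Of the 55, 15 were higher in Arf-B (0.11%) and 40 were lower in Arf-B (0.293%), and 6 differed by at least 1 on the log2(FPKM + 1) scale (0.044%). More differed by 2-fold in FPKM itself, since this scale understates low genes. Calml4, at 2.21 times its Arf-C mean, differed by 0.57 on it. The median difference over all 13645 genes was -0.01 on the log2 scale, and 98.1% of the genes lay within 0.5 of 0. Called genes differed by 0.26 to 1.38 in size. In all 55 the libraries of the lines did not overlap, which held for 2296 genes in all (16.8%), 1012 with Arf-B higher (7.42%) and 1284 with Arf-B lower (9.41%), and an unadjusted p below 0.05 was reached by 1732 (12.7%). In 47 of the 55 the gene is protein coding, as it is in 11257 of the 13645. Since these are bulk samples, fewer cells with a transcript and less of it per cell cannot be told apart.

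The number of calls depended on the model more than on the scaling. The test drew its spread from all 18 libraries of the study. With the 6 compared libraries alone 2 genes were called higher and 3 lower, and 3 of the 55 remained (Trpm1, Slc9a3r2 and Mir6924, the last with 8 reads in all and a member through its Arf-C libraries alone). The voom form of limma, which weights genes by the number of reads recovered from the table, called 169 genes (1.24%), 81 higher (0.594%) and 88 lower (0.645%), among them 51 of the 55. With the same FPKM sum in every library 24 were higher and 35 lower. Leaving out a library left 34 of the 55 called without Arf-B replicate 1, 37 without Arf-B replicate 2 and 15 without Arf-B replicate 3. It left 17 without Arf-C replicate 1, 38 without Arf-C replicate 2 and 15 without Arf-C replicate 3. The 11 genes called each time were Ripply3, Slc9a3r2, Trpm1, B2m, Id2, Ubap2l, Pros1 and Enpp5, all lower in Arf-B, and Platr14, Vwa3b and Gm45288, all higher. Of these, Gm45288 met the 0.5 FPKM rule only with its Arf-B libraries, on 24 reads in Arf-B and 4 in Arf-C.

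**Figure D1:**
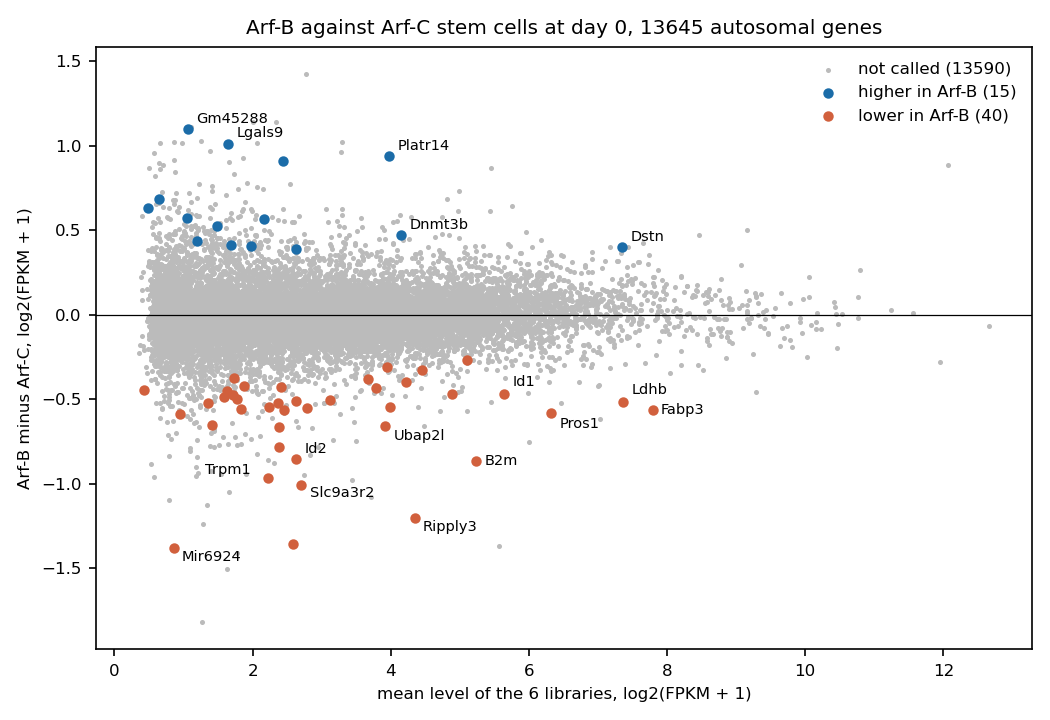
Each point is 1 of the 13645 genes, with its mean level over the 6 libraries on the horizontal axis and the difference between Arf-B and Arf-C on the vertical axis, both as log2(FPKM + 1). The 15 genes called higher in Arf-B are blue and the 40 called lower are orange. Most points lie within 0.5 of the line at 0, and no gene more abundant than Fabp3, Dstn and Ldhb is called.

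The promoters of 3 genes that were lower in Arf-B in every fit that left out a library are shown with a motif of a pathway known to act on each gene. The sequences are RefSeq promoters on GRCm38.p6, from 250 bases before to 50 after a start site, and capitals mark the motif on either strand. GGCGCC is an element bound by Smad proteins in Bmp-responsive genes. GAAA repeated after any 2 bases is a core of interferon-stimulated response elements. CACGTG and CATGTG are E-boxes of the kind bound by Mitf, the melanocyte factor known to activate TRPM1 in human cells.
Id2, chr12:25096043-25096342, minus strand: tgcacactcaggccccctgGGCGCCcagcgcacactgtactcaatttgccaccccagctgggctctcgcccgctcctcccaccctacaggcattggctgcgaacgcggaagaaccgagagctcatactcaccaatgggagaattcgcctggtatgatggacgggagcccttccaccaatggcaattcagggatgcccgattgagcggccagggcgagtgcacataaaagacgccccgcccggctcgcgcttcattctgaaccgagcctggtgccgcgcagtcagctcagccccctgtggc
B2m, chr2:122147437-122147736, plus strand: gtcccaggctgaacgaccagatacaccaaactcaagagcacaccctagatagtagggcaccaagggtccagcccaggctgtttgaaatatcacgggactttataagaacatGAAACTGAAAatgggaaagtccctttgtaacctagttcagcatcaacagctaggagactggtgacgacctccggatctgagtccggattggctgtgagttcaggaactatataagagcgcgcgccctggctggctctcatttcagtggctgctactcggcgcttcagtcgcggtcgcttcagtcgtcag
Trpm1, upstream start, chr7:64153585-64153884, plus strand: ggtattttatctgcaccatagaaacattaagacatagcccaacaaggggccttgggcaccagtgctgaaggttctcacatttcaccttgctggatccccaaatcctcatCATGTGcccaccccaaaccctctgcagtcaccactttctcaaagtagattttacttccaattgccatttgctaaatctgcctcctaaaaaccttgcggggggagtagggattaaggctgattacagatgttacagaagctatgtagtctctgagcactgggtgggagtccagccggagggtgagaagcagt
Trpm1, downstream start, chr7:64185209-64185508, plus strand: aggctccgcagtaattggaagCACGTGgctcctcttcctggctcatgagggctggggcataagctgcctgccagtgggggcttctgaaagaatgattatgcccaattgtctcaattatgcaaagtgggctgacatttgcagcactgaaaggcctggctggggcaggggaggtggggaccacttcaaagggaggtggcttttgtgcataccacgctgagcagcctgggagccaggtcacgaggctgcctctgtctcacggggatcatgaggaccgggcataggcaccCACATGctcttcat
The Id2 match starts at position -231 from the start site and the B2m match at -139. The upstream Trpm1 start has CATGTG at -141, and the downstream start has CACGTG at -229 and, as CACATG on the strand shown, CATGTG at 36. Of the 31396 promoters on chromosomes 1 to 19 in the same table, 12.1% hold GGCGCC, 3.46% hold the GAAA repeat, 7.14% hold CACGTG and 14.1% hold CATGTG. Of the 9229 genes of the comparison with a promoter there, 25.2% hold GGCGCC, 3.11% the GAAA repeat, 12% CACGTG and 9.93% CATGTG in at least 1 of them. Promoters were found for 28 of the 40 genes lower in Arf-B, of which 9 hold GGCGCC, 2 hold the GAAA repeat, 4 hold CACGTG and 4 hold CATGTG. For the 10 of 15 higher genes with a promoter the numbers were 2, 1, 0 and 3. GGGCGG, the GC box, was searched as well and is held by 20 of the 28, 8 of the 10 and 69.7% of the 9229. Id1, Tap2 and Ripply3 had no entry. A match describes letters in a window and not binding.

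Of 11 genes of Bmp signalling and its Id targets, 2 were called lower in Arf-B and none higher. Of all genes 0.293% were called lower and 0.11% higher. Id2 (chr12:25093799-25097140) was at 3.08, 3.84 and 3.36 FPKM in Arf-B, against 6.03, 7.98 and 7.0 FPKM in Arf-C. Every Arf-B library lay well below every Arf-C library (log2 -0.85, SE 0.105, adjusted p = 0.00179). Id1 (chr2:152736251-152737410), the most abundant Id gene, was at 40.1, 43.2 and 39.5 FPKM in Arf-B, against 52.8, 59.9 and 58.8 FPKM in Arf-C. The lines did not overlap and the difference was smaller (log2 -0.47, SE 0.0756, adjusted p = 0.0109), and the call was lost without Arf-B replicate 3 (adjusted p = 0.0712) or Arf-C replicate 3 (0.0801). The remaining Id genes went different ways without passing the test: Id4 averaged 2.37 ± 0.412 FPKM in Arf-B and 3.42 ± 0.526 FPKM in Arf-C (log2 -0.39, adjusted p = 0.126). Id3 averaged 22.5 ± 3.68 FPKM in Arf-B and 19.8 ± 2.57 FPKM in Arf-C (log2 0.18, adjusted p = 0.734). The ligand gene Bmp4 averaged 35.1 ± 3.57 and 39.3 ± 3.80 FPKM, with overlapping libraries. Hes1, a repressor of neural genes that Bmp and Notch signals induce, averaged 26.6 ± 2.94 FPKM in Arf-B and 34.5 ± 1.64 FPKM in Arf-C (log2 -0.37, adjusted p = 0.0802). Hes1 passed the test without Arf-B replicate 2 (0.0384), and voom called it and Id4 (0.0230 and 0.0360). The group's median log2 difference was -0.16 with 3 of 11 values above 0, beside a median of -0.01 and 6486 of 13645 values above 0 for all genes.

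Next come 4 regulators, grouped here after they were called. Ripply3 (chr16:94328420-94336935), a co-repressor that turns T-box transcription factors into repressors, was at 11.99, 9.13 and 13.0 FPKM in Arf-B, against 28.5, 26.8 and 26.5 FPKM in Arf-C. The Arf-C libraries stood together at more than 2-fold the Arf-B level (log2 -1.20, SE 0.176, adjusted p = 0.00755). Gata2, a zinc finger factor of blood and trophoblast, was at 0.528, 0.503 and 0.601 FPKM in Arf-B, against 1.13, 1.42 and 1.42 FPKM in Arf-C. The lines did not overlap (log2 -0.59, SE 0.104, adjusted p = 0.0200), with 239 reads in the 3 Arf-B libraries and 565 in the 3 Arf-C libraries. It was the single called gene of 9 trophoblast genes measured, beside 0.403% of all genes. Its call was kept only without Arf-C replicate 1, the adjusted p being 0.0632, 0.0612 and 0.0715 without Arf-B replicates 1, 2 and 3, and 0.0582 and 0.111 without Arf-C replicates 2 and 3. Hmga2, a chromatin protein of early embryonic cells, was at 4.95, 4.40 and 4.47 FPKM in Arf-B, against 7.83, 6.46 and 7.44 FPKM in Arf-C. Its difference (log2 -0.55, SE 0.0844, adjusted p = 0.00985) was not called without Arf-B replicate 3 (0.0536), Arf-C replicate 1 (0.0529) or Arf-C replicate 3 (0.0568). Btg1, which restrains cell division, was the single called gene of 16 immediate early genes, beside 0.403% of all genes. It was at 15.4, 16.6 and 13.3 FPKM in Arf-B and 20.5, 19.7 and 20.2 FPKM in Arf-C. The call (log2 -0.40, adjusted p = 0.00985) was lost without Arf-C replicate 1 (0.0529) or 3 (0.0580).

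**Figure D2:**
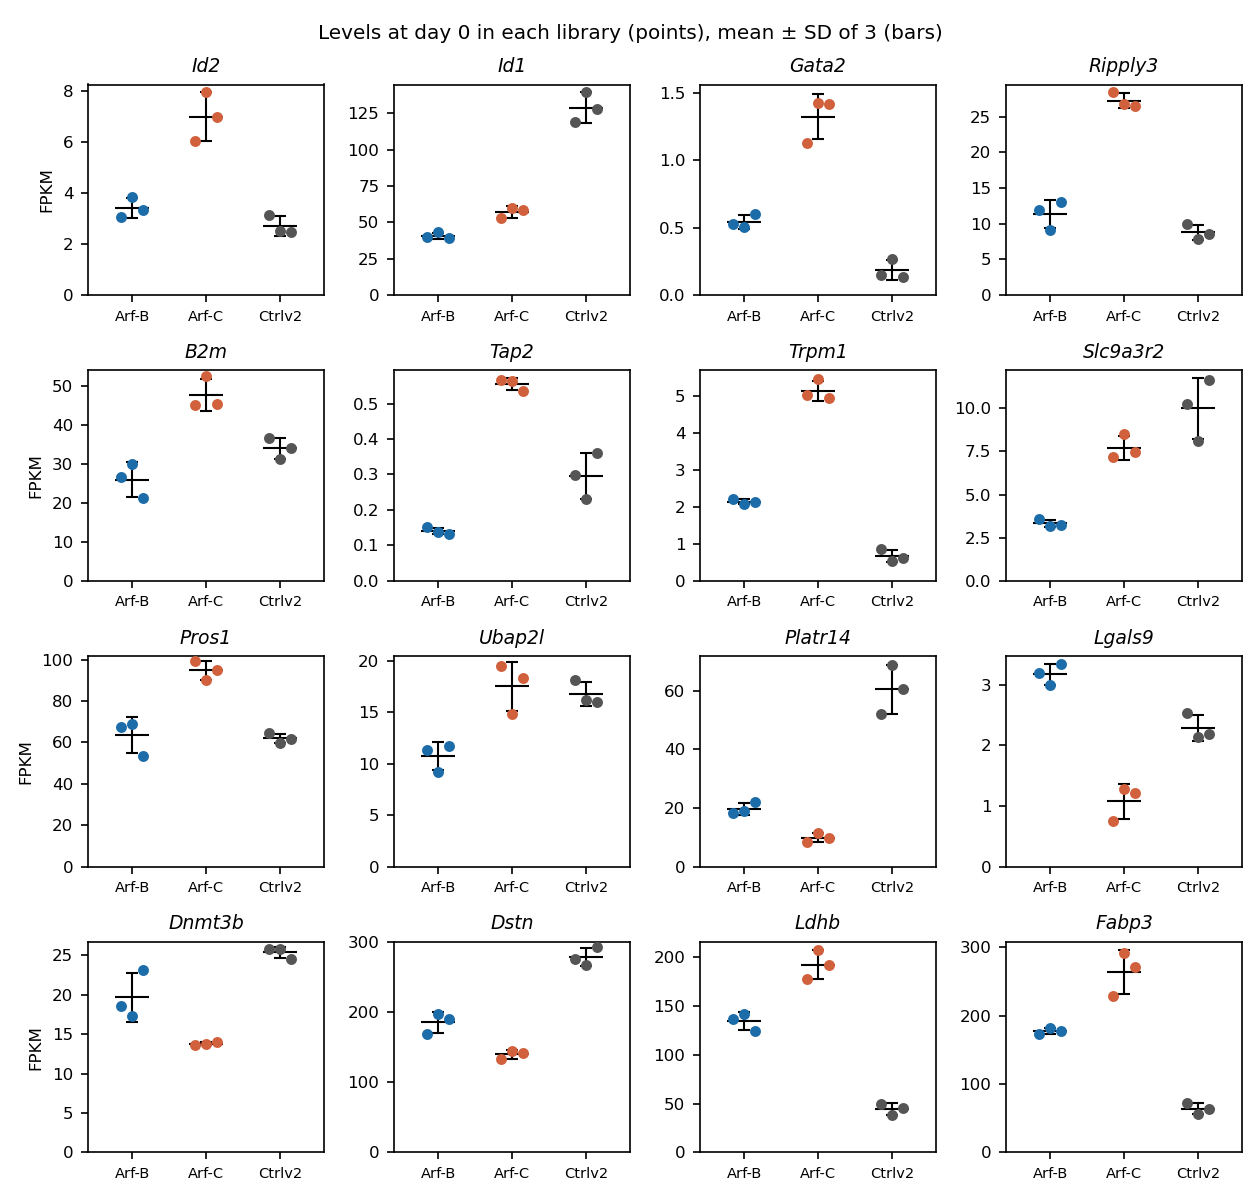
FPKM of 16 called genes at day 0 in each library (points), with the mean and the SD of 3 libraries (bars), for Arf-B, Arf-C and Ctrlv2 from left to right. In every panel the 3 Arf-B points lie apart from the 3 Arf-C points, from Tap2 below 0.6 FPKM to Fabp3 at 173 to 292 FPKM.

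Of 15 genes of a list of class I presentation and interferon response, B2m and Tap2 were called, both lower in Arf-B. Of all genes 0.293% were called lower. Tap2 met the 0.5 FPKM rule through the Arf-C libraries alone and so had to differ in that direction, which leaves B2m as the called gene that the rule did not favour. B2m (chr2:122147686-122153083) encodes beta-2 microglobulin, the light chain that every class I molecule needs at the cell surface. It was at 26.7, 29.97 and 21.2 FPKM in Arf-B, against 45.3, 52.5 and 45.4 FPKM in Arf-C. The highest Arf-B library stayed below the lowest Arf-C library by a wide margin (log2 -0.86, SE 0.0991, adjusted p = 0.000838). Patl2, which overlaps B2m on the opposite strand, averaged 11.6 FPKM in Arf-B and 16.01 FPKM in Arf-C (log2 -0.43, adjusted p = 0.226), and the sources used here do not say whether the counting used strand. Tap2 (chr17:34203527-34216321), a subunit of the pump that loads peptides onto class I molecules, was at 0.151, 0.138 and 0.133 FPKM in Arf-B, against 0.566, 0.562 and 0.535 FPKM in Arf-C. Both lines were low, with 44 reads in Arf-B and 165 in Arf-C, and the libraries within each line were close together. Its log2(FPKM + 1) difference was -0.45 (SE 0.0814, adjusted p = 0.0223) and that of voom on the reads -1.94 (adjusted p = 0.00302), both for a gene admitted through the line where it is high. The call was lost in each fit that left out a library: the adjusted p was 0.0644, 0.0612 and 0.101 without Arf-B replicates 1, 2 and 3, and 0.105, 0.0562 and 0.101 without Arf-C replicates 1, 2 and 3.

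The other presentation genes did not pass the test. The heavy chain genes H2-K1 and H2-D1 averaged 16.9 ± 0.181 and 17.6 ± 1.87 FPKM in Arf-B, against 18.8 ± 0.982 and 19.4 ± 0.207 FPKM in Arf-C, with log2 differences of -0.14 and -0.13. Tap1, the partner of Tap2, was at 0.595, 0.680 and 0.442 FPKM in Arf-B and 0.504, 0.507 and 0.435 FPKM in Arf-C, and its libraries overlapped. Tapbp, the chaperone tapasin, averaged 5.74 ± 0.0330 and 6.30 ± 0.541 FPKM. The interferon pathway factors Stat2 (log2 -0.12), Irf1 (0.11) and Irf9 (-0.13) had overlapping libraries.

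The smallest p-value among the 13645 genes belonged to Trpm1 (chr7:64153835-64269775), a cation channel gene known from melanocytes and from bipolar cells of the retina. It was at 2.22, 2.09 and 2.14 FPKM in Arf-B, against 5.04, 5.46 and 4.96 FPKM in Arf-C. Replicates were close together in each line and the lines stood far apart (log2 -0.96, SE 0.0741, adjusted p = 9.19e-06). Slc9a3r2 (chr17:24639282-24650305) encodes a scaffold protein with PDZ domains that anchors membrane transporters to the actin cytoskeleton. It was at 3.58, 3.19 and 3.24 FPKM in Arf-B, against 7.17, 8.51 and 7.47 FPKM in Arf-C. All Arf-B libraries were at about 3 FPKM and all Arf-C libraries above 7 FPKM (log2 -1.01, SE 0.105, adjusted p = 0.000293). Trpm1 and Slc9a3r2 were the 2 genes called under every alternative setting tried.

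Proteins of the cell surface or outside the cell were called in both directions, and the lower ones come first. Pros1 (chr16:62854307-62929346) encodes protein S, an anticoagulant that is also a ligand of the receptor kinases Tyro3 and Mertk. It was at 67.7, 69.1 and 53.4 FPKM in Arf-B, against 99.4, 90.1 and 94.8 FPKM in Arf-C, without overlap (log2 -0.58, SE 0.0799, adjusted p = 0.00545). F2r, the thrombin receptor, averaged 18.5 ± 1.09 FPKM in Arf-B and 23.5 ± 1.29 FPKM in Arf-C (log2 -0.33, adjusted p = 0.0473), a call that remained only without Arf-C replicate 2. Its adjusted p was 0.125, 0.0814 and 0.0717 without Arf-B replicates 1, 2 and 3, and 0.174 and 0.190 without Arf-C replicates 1 and 3. Enpp5, of the ectonucleotide pyrophosphatase family, was at 1.17, 1.09 and 1.03 FPKM in Arf-B and 1.73, 2.03 and 2.27 FPKM in Arf-C (log2 -0.52, adjusted p = 0.00613). Tgfbi, a matrix protein induced by Tgf-beta, averaged 3.04 ± 0.132 FPKM in Arf-B and 5.40 ± 0.262 FPKM in Arf-C (log2 -0.66, SE 0.133, adjusted p = 0.0457). Although its lines were far apart, the call was lost in each fit that left out a library, at 0.0854, 0.0814 and 0.182 without Arf-B replicates 1, 2 and 3 and at 0.118, 0.0860 and 0.177 without Arf-C replicates 1, 2 and 3.

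The called genes also include enzymes and a lipid carrier, grouped here after they were called. Ldhb, a lactate dehydrogenase subunit, was at 136, 142 and 124 FPKM in Arf-B, against 178, 208 and 192 FPKM in Arf-C. Its libraries did not overlap (log2 -0.52, SE 0.0925, adjusted p = 0.0212), and the call was lost without Arf-B replicate 1 (0.0559), Arf-B replicate 3 (0.124), Arf-C replicate 2 (0.0635) or Arf-C replicate 3 (0.101). Fabp3, a carrier of fatty acids, was at 173, 182 and 178 FPKM in Arf-B, against 229, 292 and 271 FPKM in Arf-C. The Arf-B libraries were close together and all below those of Arf-C (log2 -0.56, SE 0.101, adjusted p = 0.0214), but only without Arf-C replicate 1 did the call remain. It was lost at 0.0729, 0.0543 and 0.0965 without Arf-B replicates 1, 2 and 3 and at 0.0635 and 0.115 without Arf-C replicates 2 and 3. The ceramide enzymes Cers4 and Cerk were both lower, at 1.4996 ± 0.238 and 1.85 ± 0.279 FPKM in Arf-B against 2.49 ± 0.242 and 3.02 ± 0.133 FPKM in Arf-C (log2 -0.48 and -0.50). The Cers4 call was lost without Arf-C replicate 1 (0.0724) or 3 (0.0568). That of Cerk was lost without Arf-B replicate 2 (0.0705) or 3 (0.0774) or Arf-C replicate 1 (0.109), 2 (0.0509) or 3 (0.0843). Eno2, the neuronal form of the glycolytic enzyme enolase, averaged 1.89 ± 0.106 FPKM in Arf-B and 2.74 ± 0.122 FPKM in Arf-C (log2 -0.37, adjusted p = 0.00996), and was not called without Arf-B replicate 3 (0.0515) or Arf-C replicate 1 (0.0529). Of the 29 genes of a hypoxia and glycolysis list none was called by limma or voom. Their log2 differences ran from -1.37 to 0.47. Libraries were apart with Arf-B higher in 1 and with Arf-B lower in 2, against 7.42% and 9.41% of all genes. In this list 5 had an unadjusted p below 0.05, against 12.7% of all genes. Its most abundant gene, Pkm, averaged 410 ± 93.4 FPKM in Arf-B and 294 ± 57.8 FPKM in Arf-C, with overlapping libraries.

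Genes of the cytoskeleton and of transport along it, again grouped after they were called, went in both directions. Kif5c, a heavy chain of the motor kinesin known from neurons, was at 1.59, 1.66 and 1.56 FPKM in Arf-B and 2.58, 2.39 and 2.72 FPKM in Arf-C (log2 -0.45, adjusted p = 0.0122). The call was lost without Arf-B replicate 3 (0.0715), Arf-C replicate 1 (0.0657) or Arf-C replicate 3 (0.0923). Cotl1, which binds actin filaments, averaged 23.7 ± 0.809 FPKM in Arf-B and 33.3 ± 2.62 FPKM in Arf-C (log2 -0.47), and its call was lost without Arf-B replicate 3 (0.0649) or Arf-C replicate 1 (0.0529). Palm and Myl6b, a membrane-bound protein of neurons and a myosin light chain, were lower as well, with log2 differences of -0.50 and -0.51. The Myl6b call was lost without Arf-B replicate 1 (0.0524) or Arf-C replicate 3 (0.0742). The Palm call was lost without Arf-B replicate 2 (0.0808) or 3 (0.162) or Arf-C replicate 1 (0.121), 2 (0.0740) or 3 (0.0854). Dstn (chr2:143915320-143943324), an actin depolymerising factor, went the other way and was the most abundant gene called higher, at 169, 197 and 191 FPKM in Arf-B against 133, 145 and 142 FPKM in Arf-C. Its lines did not overlap (log2 0.40, SE 0.0634, adjusted p = 0.00996), and the call was lost without Arf-B replicate 3 (0.0652), Arf-C replicate 1 (0.0540) or Arf-C replicate 3 (0.0552). Sptbn4, a spectrin of the membrane skeleton, averaged 3.48 ± 0.533 FPKM in Arf-B and 2.37 ± 0.213 FPKM in Arf-C (log2 0.41, adjusted p = 0.0457). Its call was lost without Arf-B replicate 2 (0.0762) or 3 (0.193) or Arf-C replicate 1 (0.171) or 3 (0.190). Eno2, Kif5c and Palm are known from neurons and were picked after they were called. Beside them stand the neural marker sums given above, which were lower in Arf-B. A list of neural progenitor and neuron genes went both ways. Of its 4 genes measured none was called by limma or voom, and 1 had a difference above 0. Libraries were apart with Arf-B higher in 1 and with Arf-B lower in 2. None of the neural markers was called by limma or voom, 1 had an unadjusted p below 0.05, and the part of such cells in these results was not tested.

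Among the 15 genes higher in Arf-B, Platr14 (chr2:104559163-104571429), one of the long noncoding RNAs named for their link to pluripotency, had the largest difference at a level of 5 FPKM or more. It was at 18.4, 18.8 and 22.0 FPKM in Arf-B, against 8.30, 11.4 and 9.80 FPKM in Arf-C, without overlap (log2 0.94, SE 0.131, adjusted p = 0.00545). Lgals9, which encodes the sugar-binding protein galectin-9, was at 3.18, 2.99 and 3.34 FPKM in Arf-B, against 0.752, 1.28 and 1.21 FPKM in Arf-C. That is 2.93 times the Arf-C mean (log2 1.01, SE 0.159, adjusted p = 0.00996). The Lgals9 call was lost without Arf-B replicate 3 (0.0649) or Arf-C replicate 1 (0.0617), and with a pseudocount of 0.1 (0.0850). P2rx7, an ATP-gated ion channel, averaged 4.33 ± 0.262 FPKM in Arf-B and 2.602 ± 0.324 FPKM in Arf-C (log2 0.57, adjusted p = 0.0122), and was not called without Arf-B replicate 1 (0.0546) or Arf-C replicate 3 (0.0875). Vwa3b was at 2.15, 2.51 and 2.29 FPKM in Arf-B and 1.35, 1.39 and 1.17 FPKM in Arf-C (log2 0.53, adjusted p = 0.00545), and was not called with a pseudocount of 0.1 (0.133). Calml4, a relative of calmodulin, Plekhg1, and Ptk2b, a tyrosine kinase of the focal adhesion family, were higher by 0.57, 0.44 and 0.42 on the log2 scale. Each of these 3 calls was lost without Arf-B replicate 3 (0.0935, 0.0965 and 0.0965), Arf-C replicate 1 (0.0825, 0.112 and 0.0762) or Arf-C replicate 3 (0.100, 0.130 and 0.115). Those of Plekhg1 and Ptk2b were also lost without Arf-B replicate 1 (0.0784 and 0.0927), and that of Ptk2b without Arf-B replicate 2 (0.0566) or Arf-C replicate 2 (0.0765).

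Dnmt3b (chr2:153649450-153687730), one of the enzymes that lay down DNA methylation, was higher in Arf-B. Beside 0.403% of all genes, it was the single called gene both of 11 formative and primed state genes and of 21 genes of DNA methylation. It was at 18.6, 17.3 and 23.2 FPKM in Arf-B, against 13.6, 13.7 and 14.1 FPKM in Arf-C. The Arf-C libraries were nearly equal and Arf-B replicate 3 stood highest (log2 0.47, SE 0.0819, adjusted p = 0.0178). Without Arf-B replicate 3 the adjusted p was 0.0515, and without Arf-C replicate 1 or 3 it was 0.0850 or 0.0807. Dnmt3a, the related enzyme, averaged 4.91 ± 0.451 FPKM in Arf-B and 4.05 ± 0.412 FPKM in Arf-C (log2 0.23, adjusted p = 0.299). Other genes of the primed list did not pass: Otx2 had a log2 difference of -0.06, Fgf5 of 0.16, Zic2 of 0.14 and Zic5 of 0.29, of which Zic5 had libraries apart. Lamb1, the beta-1 chain of laminin, was the single called gene of 9 endoderm genes, beside 0.403% of all genes. It was at 6.02, 5.52 and 6.47 FPKM in Arf-B and 4.30, 4.45 and 4.25 FPKM in Arf-C (log2 0.39, SE 0.073, adjusted p = 0.0284). That call remained only without Arf-B replicate 2, the adjusted p being 0.0792 and 0.162 without Arf-B replicates 1 and 3 and 0.113, 0.0509 and 0.141 without Arf-C replicates 1, 2 and 3. The other chains of laminin-1, Lama1 and Lamc1, had log2 differences of -0.25 and -0.05 with overlapping libraries.

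None of 16 naive and none of 14 core pluripotency genes was called by limma or by voom. An unadjusted p below 0.05 was reached by 2 and 3 of them, against 12.7% of all genes. Nanog was at 297, 304 and 200 FPKM in Arf-B and 332, 301 and 335 FPKM in Arf-C, with overlap, and Pou5f1 at 466, 498 and 518 FPKM in Arf-B and 417, 508 and 461 FPKM in Arf-C, also with overlap. Of the naive genes 3 had a difference above 0, and their median was -0.13, while 11 of the 14 core genes lay above 0 with a median of 0.06. Libraries were apart, with Arf-B below, in Klf2, Klf4, Tbx3, Tcl1, Prdm14 and Fgf4 (log2 -0.33 to -0.17), and with Arf-B above in Gbx2 (log2 0.32, adjusted p = 0.0876). That is 6 of 16 naive genes with Arf-B below, against 9.41% of all genes. In the core list the libraries were apart with Arf-B above in 4 of 14, against 7.42% of all genes, and with Arf-B below in 0. The median of the 28 genes of RNA polymerase I and ribosome assembly was 0.11 with 25 above 0, and that of 20 cholesterol synthesis genes 0.07 with 18 above 0, with no call in either list by limma or voom and 8 and 2 unadjusted p-values below 0.05, which 12.7% of all genes reached. Libraries were apart with Arf-B above in 9 of the 28 and with Arf-B below in 0, and in 1 of the 20 each way. No gene was called by limma among 37 Trp53 targets (median -0.00), 19 binding partners of p19Arf (0.03), 28 E2f and cell cycle genes (0.03), 21 regulators of the G1 phase (0.01) and 57 ribosomal protein genes (-0.01). In these 5 lists 6, 3, 2, 4 and 1 genes had an unadjusted p below 0.05, against 12.7% of all genes. Voom called Pmaip1 (log2 0.47) of the Trp53 targets and Ccnd1 (log2 0.53) of the G1 regulators, both higher in Arf-B.

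**Figure D3:**
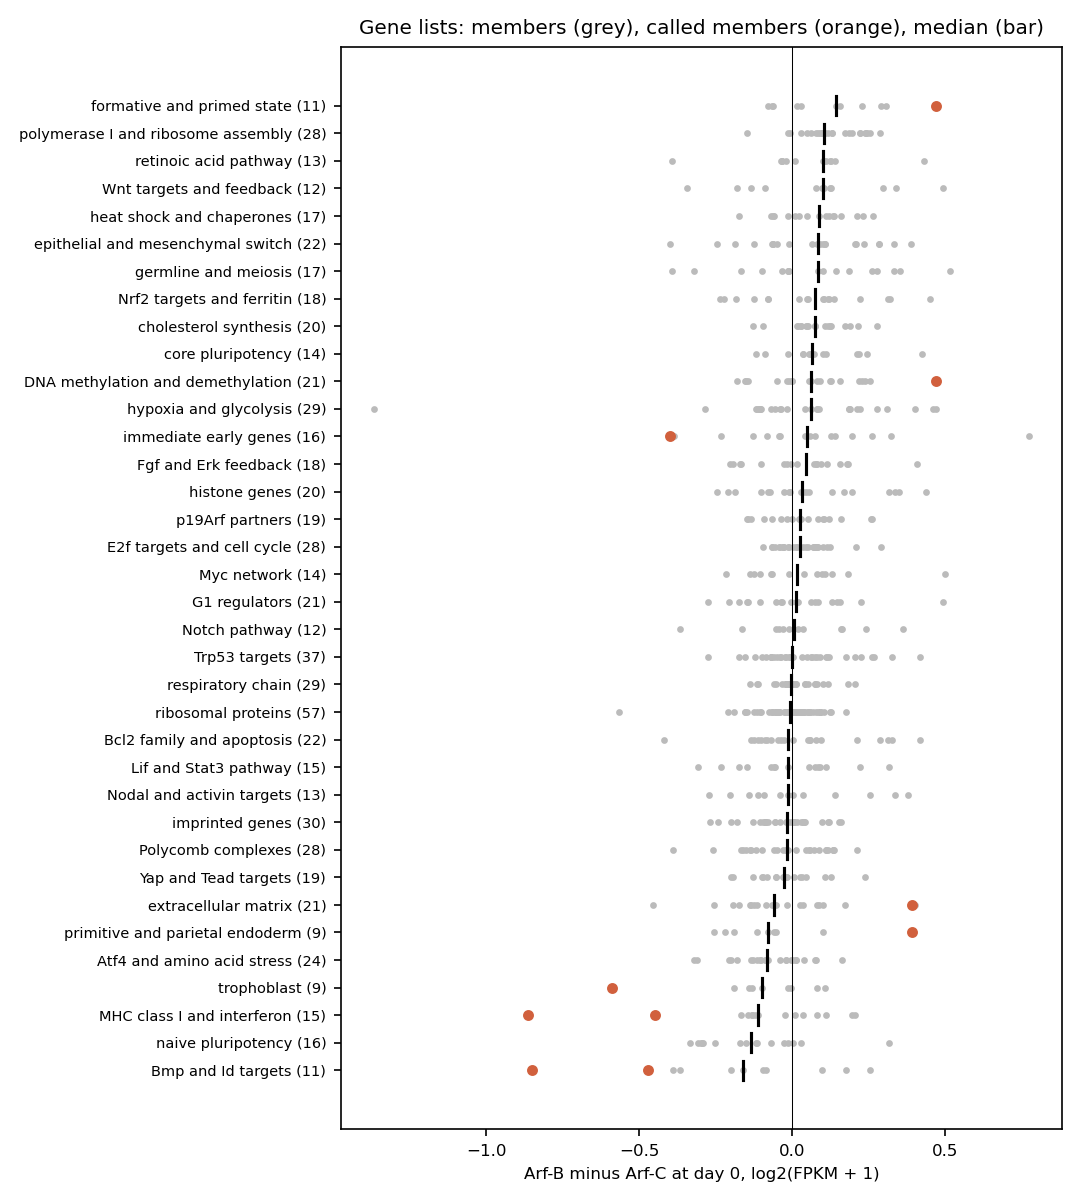
Differences between Arf-B and Arf-C at day 0, as log2(FPKM + 1), for the genes of each list with at least 5 members, ordered by the list's median (black bar). Called genes are orange and all others grey, and the number of members stands beside each name. The lists of Bmp and Id targets and of class I presentation hold 2 called genes each, both to the left of 0, and no list holds more.

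The remaining called genes were small noncoding or low ones, or genes with no list. Tmem51, Cmtm7, Fam189a2, Zfp362, Cdc14a, Slc30a4, Ndst2, Scara5, S100a1, Rragd, Nptn, Dtx3 and Snx32 were lower in Arf-B by 0.26 to 0.78 on the log2 scale. Each of these 13 calls was lost without Arf-B replicate 3 (adjusted p 0.0649 to 0.196), without Arf-C replicate 1 (0.0724 to 0.178) or without Arf-C replicate 3 (0.0525 to 0.187). Cmtm7, Zfp362, Nptn, Slc30a4, Scara5 and Snx32 were also lost without Arf-B replicate 1 (0.0524 to 0.114), and Slc30a4, Ndst2, Scara5, Dtx3 and Snx32 without Arf-B replicate 2 (0.0553 to 0.0814). Without Arf-C replicate 2 the calls of Cmtm7, Zfp362, Scara5, Nptn, Dtx3 and Snx32 were lost (0.0514 to 0.0804). S100a1, a calcium-binding protein, was at 3.88, 2.21 and 2.57 FPKM in Arf-B and 5.64, 5.29 and 5.83 FPKM in Arf-C (log2 -0.78, SE 0.139, adjusted p = 0.0205). It was also lost without Arf-B replicate 2 (0.0695). Fam189a2 averaged 3.44 ± 0.469 FPKM in Arf-B and 5.57 ± 0.721 FPKM in Arf-C (log2 -0.56, adjusted p = 0.0469), and its call was also lost without Arf-B replicate 1 (0.116) or 2 (0.104). Rragd, a small GTPase that signals amino acid levels at the lysosome, averaged 10.0 ± 0.455 FPKM in Arf-B and 13.4 ± 1.04 FPKM in Arf-C (log2 -0.38, adjusted p = 0.0109).

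Of the called genes 4 low ones were not called by voom, which takes the number of reads into account. Mir6924, a microRNA gene inside Acap1, had 0 reads in the 3 Arf-B libraries and 8 in the 3 Arf-C libraries (voom adjusted p = 0.101). Its reads cannot be told apart by strand from those of Acap1, which averaged 4.21 FPKM in both lines. The pseudogenes Gm45288 and Cbx3-ps8 had 24 and 41 reads in Arf-B against 4 and 9 in Arf-C (0.0781 and 0.0984). Cbx3-ps8 is a member through its Arf-B libraries alone. Gm45288, at 0.546, 0.454 and 0 FPKM in Arf-C, also met the 0.5 FPKM rule only with its Arf-B libraries. The limma call of Mir6924 was lost without Arf-B replicate 3 (0.0694) or Arf-C replicate 1 (0.0762). That of Cbx3-ps8 was lost without Arf-B replicate 2 (0.0684) or 3 (0.0965) or Arf-C replicate 1 (0.109) or 3 (0.103). Pseudogenes share sequence with their parent gene, so their reads are uncertain. Gm24690, listed as a ribosomal RNA gene, had 19 reads in Arf-B and 58 in Arf-C (0.103), while Gm23935, an abundant ribosomal RNA copy, took 0.0215% to 0.0390% of the reads in Arf-B and 0.01504% to 0.0180% in Arf-C. The Gm24690 call was lost without Arf-B replicate 1 (0.0644), 2 (0.0612) or 3 (0.162) or Arf-C replicate 1 (0.147) or 3 (0.0923). Gm43041, of unclassified type, was at 7.65, 4.17 and 6.64 FPKM in Arf-B and 2.73, 3.12 and 2.37 FPKM in Arf-C and was called by both. Its limma call remained only without Arf-B replicate 2, at 0.116 and 0.186 without Arf-B replicates 1 and 3 and 0.132, 0.0509 and 0.204 without Arf-C replicates 1, 2 and 3.

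At day 8 the same lines were compared in separate libraries, of 17103466 to 22222425 reads on genes in Arf-B and 14598683 to 15678839 in Arf-C. Of the 13645 genes 6 were called there (0.044%), and 627 had an unadjusted p below 0.05 (4.6%). Ubap2l (chr3:90000140-90052628), which encodes an RNA-binding protein of stress granules, was the single one of the 13645 called at both days, 1 of the 55 and 1 of the 6. At day 0 it was at 11.4, 9.16 and 11.8 FPKM in Arf-B, against 19.5, 14.9 and 18.3 FPKM in Arf-C, and at day 8 at 12.7, 13.2 and 13.5 FPKM in Arf-B, against 21.2, 22.4 and 21.5 FPKM in Arf-C. All Arf-B libraries lay below all Arf-C libraries at both days, by nearly the same amount (log2 -0.66 at day 0, adjusted p = 0.00613, and -0.68 at day 8, adjusted p = 0.00575). The day 8 call was lost without Arf-B replicate 1 of day 8. Ctrlv2 cells had 18.1, 16.2 and 16.04 FPKM at day 0, close to Arf-C. The expressed genes 4933434E20Rik and Gm19710 overlap Ubap2l on the opposite strand.

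For the other 54 called genes the difference was larger at day 0 than at day 8, and for 50 of the 55 it was below 0.2 in size at day 8. Genes chosen for a large day 0 difference tend to have a smaller one in separate libraries, so these counts do not show a change between the days. Id2 was at 31.8 ± 1.91 FPKM in Arf-B and 31.8 ± 3.05 FPKM in Arf-C at day 8 (log2 0.00), and B2m at 111 ± 1.42 and 111 ± 3.02 FPKM (log2 -0.01). Both genes thus stood far above their day 0 levels with no difference left between the line means. Trpm1 was near 0 in both lines at day 8, with 0.0438 ± 0.0235 FPKM in Arf-B and 0.0359 ± 0.0269 FPKM in Arf-C. The sign at day 8 was that of day 0 in 30 of the 55 genes, 10 of the 15 higher and 20 of the 40 lower. Across all 13645 genes the day 0 and day 8 differences had a correlation of 0.0187, a description over genes measured in separate libraries. A test of the difference between the days passed for 3 of the 13645 genes (0.022%), of which Trpm1 alone was also called at day 0.

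**Figure D4:**
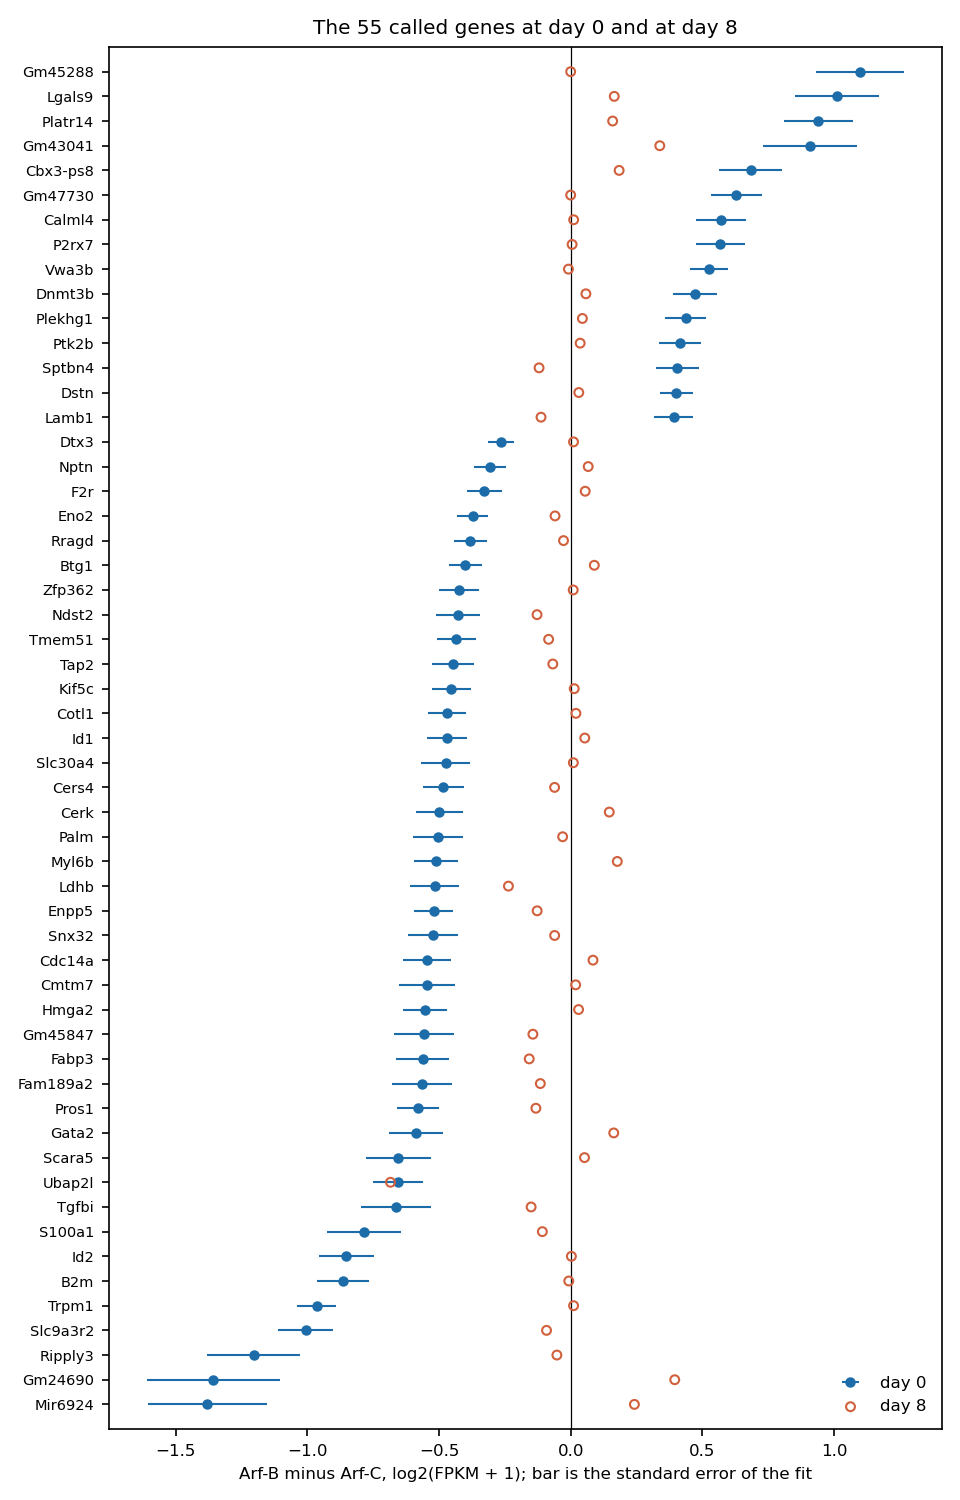
Differences between Arf-B and Arf-C, as log2(FPKM + 1), for the 55 genes called at day 0, sorted by size. Filled blue points with their standard error are day 0 and open orange circles are day 8. Most circles lie near 0 on both sides, and the circle of Ubap2l at -0.68 lies on its day 0 point at -0.66.

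Levels in Ctrlv2 cells place the differences. Against Ctrlv2 at day 0, many more genes were called: 5961 in Arf-B (43.7%) and 6545 in Arf-C (48%). Of the 55 genes, 39 were called in Arf-B and 41 of them in Arf-C in that setting, comparisons that share the Ctrlv2 libraries with each other and the Arf libraries with the comparison described here. The mean of Ctrlv2 was above both Arf lines in 19 of the 55, below both in 20 and between them in 16. It was nearer to Arf-B in 36 and nearer to Arf-C in 19. Among the 15 genes higher in Arf-B it lay above both lines in 10, as for Platr14 (51.9, 68.7 and 60.7 FPKM in Ctrlv2) and Dnmt3b (25.8, 25.8 and 24.6 FPKM). Arf-B was then the line with the level nearer to Ctrlv2. Among the 40 lower genes it lay below both lines in 19, as for Ripply3 (9.95, 7.92 and 8.52 FPKM), Id2 (3.16, 2.52 and 2.47 FPKM) and Ldhb (50.2, 38.0 and 45.6 FPKM). In the other 21 it did not, as for Id1, at 119, 140 and 128 FPKM in Ctrlv2, over 2-fold both Arf lines, and Slc9a3r2, at 10.2, 8.11 and 11.6 FPKM. B2m in Ctrlv2 was at 36.7, 31.2 and 34.1 FPKM, between the lines. The position of the Ctrlv2 mean was counted for the 55 called genes alone. These counts have no share of all genes beside them. Whether a Ctrlv2 level nearer to Arf-B is particular to the called genes was therefore not tested.

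**Figure D5:**
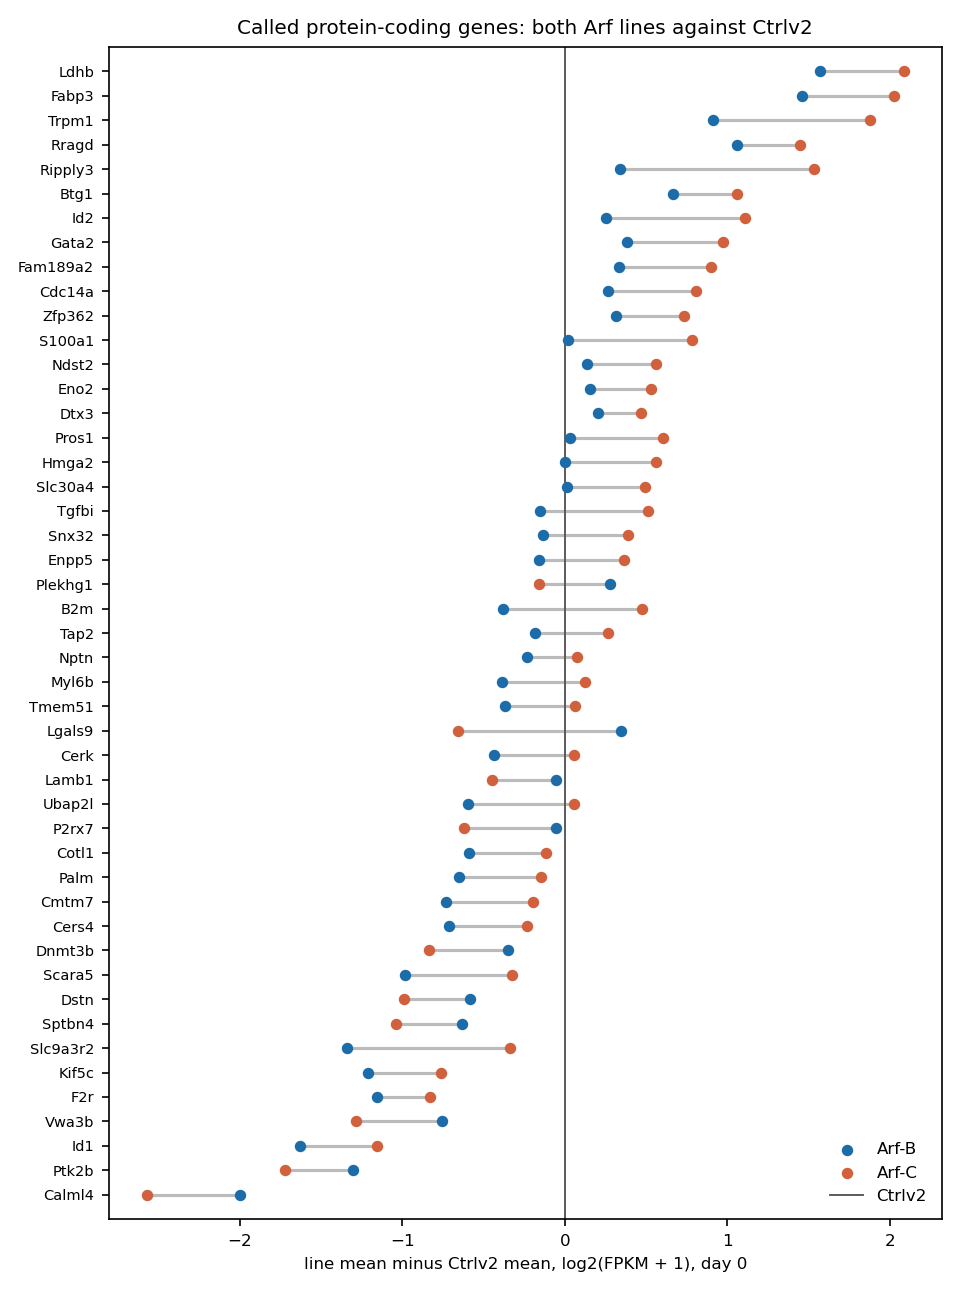
Mean level at day 0 of Arf-B (blue) and Arf-C (orange) minus the mean of Ctrlv2, as log2(FPKM + 1), for the 47 called protein-coding genes. Each grey line joins the lines' values for 1 gene. Both lie on the same side of Ctrlv2 for most genes, from Calml4 at the bottom to Ldhb at the top.

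No chromosome was called as a whole. Over genes of at least 1 FPKM, the medians of the 19 autosomes differed between the lines by -0.0192 to -0.0012 on the log2 scale, and none passed the limma test (smallest adjusted p = 0.431), nor did any reach an unadjusted p below 0.05. Outside the 13645 genes, 2 genes of the Y chromosome were called, besides Gm12690 of chromosome 4 (log2 0.64) and AC149090.1 (log2 -0.32). Ddx3y was at 9.11, 9.27 and 8.24 FPKM in Arf-B, against 0.658, 0.462 and 0.542 FPKM in Arf-C, and Uty at 3.01, 3.33 and 2.605 FPKM in Arf-B, against 0.143, 0.0841 and 0.0608 FPKM in Arf-C. Both were far lower in every Arf-C library. At day 8 limma called both again as higher in Arf-B. The log2 difference was 1.98 for Ddx3y (adjusted p = 0.00398) and 1.59 for Uty (adjusted p = 8.02e-06). The test of chromosomes covered autosomes alone, and the state of the Y chromosome in Arf-C was not tested.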

How the data were processed

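Polyadenylated RNA was sequenced from Arf-B, Arf-C and Ctrlv2 cells at day 0 and day 8, with 3 libraries in each of 6 groups. The authors deposited FPKM values per gene; per the submitters' processing notes, HISAT2, featureCounts, DESeq2 and the mm10 assembly were used, with no role or version given. Multiplied by gene length, all 413772 values above 0 (100.0%) were whole multiples of a fixed step in each library (tolerance 0.001 reads), which gave read numbers and depth. Groups follow the sample titles. The main test was limma 3.58.1 (R 4.3.3, trend and robust) on log2(FPKM + 1), fitted to 18 libraries and the 17200 genes that reached 0.5 FPKM in 3 or more of them, with Benjamini-Hochberg adjustment and a threshold of 0.05. A fold change on this scale understates that of low genes. Voom weights on the recovered reads were an alternative chosen after seeing the data, count models included. Single libraries were left out, and pseudocounts, filters, scalings and library sets varied. Day 0 libraries held 22945409 to 33311220 reads on genes. The limma fit and the chromosome test were tested on simulated data. Chromosome medians were tested with limma over the 6 libraries. Members and gene lists were chosen with earlier results of these data known. Genes named were Cdkn2a, Cdkn2b, Trp53, Mdm2, Cdkn1a and Npm1; up to 12 called genes per direction with the largest changes, a usual symbol, at least 5 FPKM in the higher line and libraries that did not overlap; up to 4 called members of each list described, or its 2 most abundant where none was called; and up to 4 genes per direction called at both days. All other genes named were chosen after their values were seen. Figures were drawn with matplotlib 3.10.9.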

Additional observations from a re-analysis of the deposited data

Results flagged for a closer look

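For 3 genes the difference between Arf-B and Arf-C changed between the days by a test of that change in the limma model. Trpm1 was lower in Arf-B at day 0 (log2 -0.96) and level at day 8 (0.01), a change of 0.975 (adjusted p = 0.000906), with FPKM near 0 in both lines at day 8. Lefty2, which encodes a secreted inhibitor of Nodal, was at 23.1, 20.3 and 30.7 FPKM in Arf-B and 31.6, 27.6 and 29.7 FPKM in Arf-C at day 0, with overlap. At day 8 it was at 1.60, 2.06 and 3.20 FPKM in Arf-B and 0.0463, 0.201 and 0.554 FPKM in Arf-C, without overlap, and the change in the log2 difference was 1.64 (adjusted p = 0.0352). CT010467.1, listed as a ribosomal RNA gene, was at 43.3, 52.7 and 59.2 FPKM in Arf-B and 33.9, 30.4 and 35.3 FPKM in Arf-C at day 0. At day 8 it was at 56.7, 61.3 and 63.3 FPKM in Arf-B and 173, 97.4 and 124 FPKM in Arf-C, a change of -1.69 (adjusted p = 0.00781). Residual ribosomal RNA can differ between libraries prepared from polyadenylated RNA, and its part in this result was not tested.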

How the results depend on the processing

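The counts of genes called at day 0, 15 higher and 40 lower in Arf-B, moved with the libraries in the fit and with the model. Higher and lower calls were 2 and 3 with the 6 compared libraries alone, 2 and 4 with the 9 day 0 libraries (an alternative added after seeing the data), 25 and 50 when genes averaging under 1 FPKM were left out, 24 and 35 with the same FPKM sum, and 81 and 88 with voom. Without single libraries they ranged over 4 to 25 higher and 11 to 36 lower. The 2 planned count models were run on the recovered reads and called more genes than limma, and their counts lay on either side of that of voom. Their values are not reported, since such models are kept for deposited counts. Voom, added after those fits were seen, uses the same recovered reads and shares that limit. Same-numbered replicates of the lines had deviations that correlated at 0.240, 0.118 and -0.0228, and 3 of 6 libraries correlated best with their own number. With so few libraries this does not decide whether the numbers pair the samples. With the replicate block 10 genes were called higher and 19 lower. Of the 13645 genes 1 was called at both days, and 0 to 1 without single libraries (0 without Arf-B replicate 1 of day 8). The difference between days was called for 3 genes, for 9 with a pseudocount of 0.1, 6 with median-ratio scaling, 5 with the replicate block and 2 to 5 without single libraries (5 without Arf-C replicate 3 of day 8). Distinct list genes called numbered 8, and 2 to 8 without single libraries. Chromosome medians gave no limma call under any alternative run. Of the named genes none changed sign where called. The cause of these changes was not tested. With 3 libraries per line, small differences and genes of few reads are least certain.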

Other observations

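Lists of lysosomal genes and of nucleotide and polyamine synthesis genes were drawn up after their values were seen, and are given as a description. Of 47 lysosomal genes, 41 had a lower mean log2 level in Arf-B than in Arf-C, with a median difference of -0.21 beside -0.01 for all genes. The libraries did not overlap in 22 of them with Arf-B lower and in 2 with Arf-B higher, against 9.41% and 7.42% of all genes. limma called 1, the GTPase gene Rragd, as lower, against 0.293% of all genes. An unadjusted p below 0.05 was reached by 28, against 12.7%, and voom called 8, all lower, against 0.645%. Ctsl, which encodes the protease cathepsin L, was at 72.3, 74.9 and 66.9 FPKM in Arf-B and 82.8, 96.7 and 89.7 FPKM in Arf-C (limma adjusted p = 0.0504, voom 0.0105). Lamp1, which encodes the main lysosomal membrane protein, was at 337, 356 and 288 FPKM in Arf-B and 408, 404 and 411 FPKM in Arf-C (0.149 and 0.0427).

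Of 18 genes of purine, pyrimidine and polyamine synthesis, 17 had a higher mean log2 level in Arf-B, with a median difference of 0.13. limma called none of them, and 9 had an unadjusted p below 0.05, against 12.7% of all genes. Voom called 4, all higher, against 0.594% of all genes. Libraries were apart with Arf-B higher in 5 and with Arf-B lower in 0, against 7.42% and 9.41% of all genes. Gart, an enzyme of purine synthesis, was at 55.0, 51.7 and 72.4 FPKM in Arf-B and 46.1, 42.8 and 44.1 FPKM in Arf-C (limma adjusted p = 0.0793, voom 0.0145). Cad, which starts pyrimidine synthesis, was at 35.6, 34.4 and 43.4 FPKM in Arf-B and 28.5, 31.3 and 27.6 FPKM in Arf-C (0.0964 and 0.0245). Arf-B replicate 3 was the highest library for both genes.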
